A study of Gallus gallus with 4 samples.

Results

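Cytokines, chemokines and their receptors were measured in dorsal feathers of untreated White Leghorn chickens, in the dermal papilla complex at the growing stage. The members are the 87 rows, of 15386 in the expression table, whose gene name begins with CCL, CCR, CXCL, CXCR, XCR, IL, CSF, TNFSF or TNFRSF followed by a digit. The dermal papilla is a body of mesenchyme in the lower feather follicle that instructs the surrounding epithelium. RNA was sequenced from dissected tissue of the anterior side and of the posterior side, with 2 libraries from each and 4 in all. The stated purpose was to compare gene expression between the sides. Whether different birds gave the libraries is not stated, so the p-values reflect spread among these libraries, possibly only technical. Levels are RPKM, the reads per kilobase of gene scaled to the mapped reads of the library.

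Chemokines are small secreted proteins that direct cell migration through receptors coupled to G proteins, and the CC and CXC families are named for the spacing of their first cysteines. Many interleukins and some colony-stimulating factors act through receptors linked to JAK kinases and STAT factors. The IL-1 and tumour necrosis factor (TNF) families act largely through NF-kappaB. In skin such signals pass between keratinocytes, fibroblasts, endothelium and resident leukocytes, and several decoy receptors bind a ligand without passing on its signal.

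The libraries differed from each other apart from their side. Posterior library 1 had 77.0% of the depth of anterior library 1, against 99.6% and 99.9% for the other libraries, as read from the steps between low values. The absolute number of reads is unknown. The 8 smooth muscle markers found in the table summed to 3955 RPKM in posterior library 1 and to 203.9 to 285.7 RPKM in the others, and all 8 were highest in that library. Mesenchymal markers were present in each library, with PDGFRA at 36.9 to 43.3 RPKM and VCAN at 38.6 to 74.7 RPKM. Of 10 tested papilla and fibroblast markers, 7 were lowest and 1 was highest in posterior library 1. Over all tested genes these shares were 54.5% and 26.5%. WNT5A measured 17.6 RPKM there against 66.5 to 75.6 RPKM in the others, and DCN 1561 RPKM against 492 to 749 RPKM. Of the papilla markers, ALPL measured 37.2 and 33.7 RPKM on the anterior side and 3.46 and 19.3 RPKM on the posterior side. CORIN measured 6.86 and 2.13 RPKM against 0.308 and 0.562 RPKM, with libraries 1 and 2 in turn. For ALPL and CORIN the anterior values lay above the posterior values (limma adjusted p = 0.964 for each), and posterior library 1 was lowest. SOX2 was at or below 0.163 RPKM. Epithelial markers (6 found, none at 0) summed to 2502 and 831 RPKM in anterior libraries 1 and 2 and to 1290 and 921 RPKM in posterior libraries 1 and 2. These sums came mostly from the keratins KRT5, KRT14 and KRT75. The markers did not move together in posterior library 1, where KRT5, CDH1 and TP63 had their lowest value and EPCAM its highest. Markers of several cell types were thus present, and in such bulk samples fewer cells of a type and less RNA per cell cannot be told apart.

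Receptors made up most of the expressed members, as they did of all 87 members, and few ligands among the members were abundant. Outside the name rule, the cytokine MIF ran from 326 to 372 RPKM. Of the 87 members, 45 reached 1 RPKM in at least 2 libraries and were tested, and 42 did not. By role, 3 of 4 CC ligands, 2 of 3 CXC ligands and 4 of 12 chemokine receptors were tested. The same held for 4 of 14 interleukins, 20 of 31 interleukin receptors, 1 of 2 colony-stimulating factors and both of their receptors, and for 1 of 3 TNF superfamily ligands and 8 of 13 TNF receptors. The highest mean level was that of CXCR7 at 41.5 RPKM, at percentile 92.6 of all genes, followed by TNFRSF19 at 31.4, TNFSF10 at 28.5 and TNFRSF1A at 27.9 RPKM. The plot of levels by library shows 44 of the 45.

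**Figure D1:**
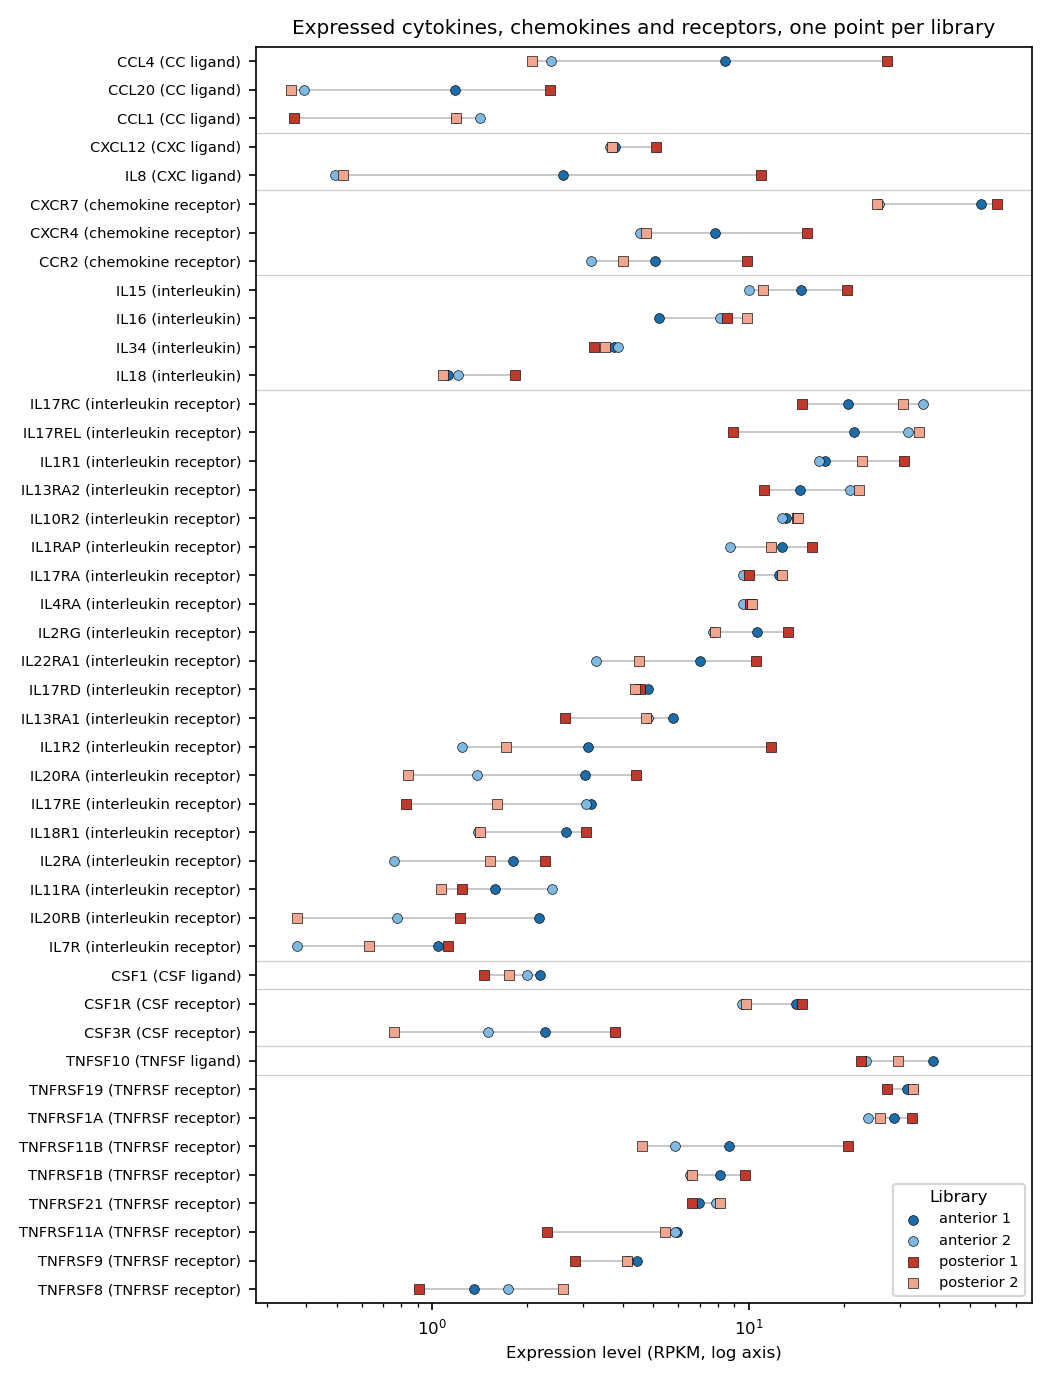
Level in RPKM on a log axis of 44 tested members, grouped by role, with 1 point per library (circles anterior, squares posterior). The libraries of one side lie far apart for CCL4, IL8, IL1R2 and IL20RA, and close together for IL4RA, IL17RD and IL10R2.

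Between the sides, no member passed the test. Of the 45 members, 0 had a Benjamini-Hochberg adjusted p under 0.05 in limma (lowest 0.964), against 0 of 10939 genes tested, or 0%. IL17RE was the 1 member with an unadjusted p under 0.05, or 2.22% of members against 0.942% of all tested genes. On the log2(RPKM + 1) scale, which understates changes of low genes, 0 members exceeded the posterior level by 2-fold or more in anterior tissue without overlap between the sides, against 0.64% of all genes. In the posterior direction the count was also 0, against 0.192%. Both anterior libraries stood above both posterior libraries for 7 members, with a background of 18.9%, and the reverse held for 4 members, with a background of 7.25%. The members' shares, 15.6% and 8.89%, lie near these backgrounds. Median ratio scaling gave 5 members in each direction. The share over all tested genes is not given for that scaling, so these counts have no background. The median log2 difference, anterior minus posterior, was -0.07 over the 45 members and 0.11 over all tested genes. After median ratio scaling the median over all genes was -0.01 and that over the members -0.19, so relative to all genes the members' median was -0.19 as deposited and -0.18 after scaling. Without posterior library 1 the members' median was 0.07, against 0.02 over all genes. With 1 library left on a side, absence of overlap is easier to reach for any gene. Counts of members at least 2-fold apart after leaving out a library are therefore not set against the backgrounds above. For 2 libraries a side the smallest two-sided p of an exact permutation test is 0.333.

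**Figure D2:**
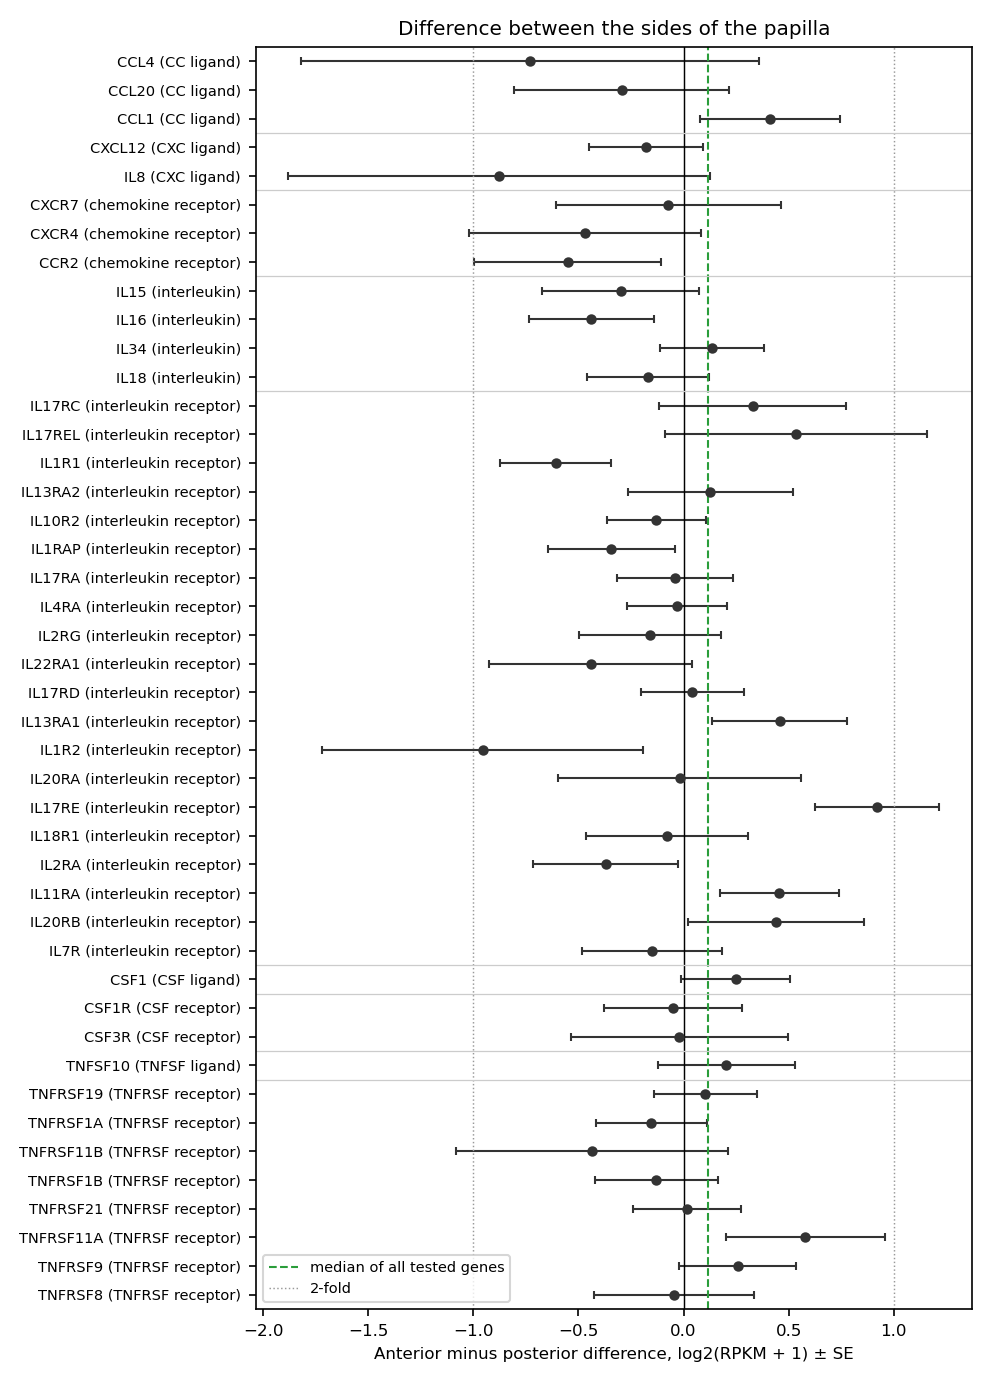
Anterior minus posterior difference of 44 tested members on the log2(RPKM + 1) scale, with its standard error from limma (2 libraries a side). The dashed line is the median of all 10939 tested genes at 0.11 and the dotted lines mark a 2-fold difference. IL17RE has the highest value at 0.92 and IL1R2 the lowest at -0.96, with a standard error of 0.76.

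The interleukin-17 receptor family held the member with the smallest p. IL17RE, which in mammals pairs with IL17RA as the receptor for IL-17C, measured 3.19 and 3.07 RPKM on the anterior side, libraries 1 and 2 in turn, and 0.827 and 1.60 RPKM on the posterior side, in the same order as all values below. Both anterior values lay above both posterior values, and the posterior libraries differed from each other more than the anterior ones did. The means were 3.13 ± 0.0804 and 1.21 ± 0.547 RPKM (SD, n = 2 each), a ratio of 2.58 in RPKM and a log2 difference of 0.92 (standard error 0.30, unadjusted limma p of 0.0228, adjusted p = 0.964). Without posterior library 1 the log2 difference was 0.67.

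Other receptors of this family were abundant and varied within the sides. IL17RC, which pairs with IL17RA as the receptor for IL-17A and IL-17F in mammals, measured 20.6 and 35.5 RPKM on the anterior side and 14.7 and 30.7 RPKM on the posterior side. IL17REL, named for its likeness to IL17RE, measured 21.6 and 32.0 RPKM on the anterior side and 8.93 and 34.6 RPKM on the posterior side. Library 2 was the higher one within each side for both genes, and the sides overlapped. The shared subunit IL17RA ran from 9.61 to 12.8 RPKM, and IL17RD, a family member also known as a brake on FGF signalling, from 4.37 to 4.82 RPKM. Their sides overlapped as well. The ligand genes found were near 0, with IL17B at 0.0697 to 0.376 RPKM, IL17C at 0 in both anterior libraries and 0.0683 and 0.0528 RPKM in the posterior, and IL17F at 0 in 3 libraries and 0.0174 RPKM in anterior library 1.

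Interleukin-1 receptor genes had higher posterior than anterior means, none of them past the test. IL1R1, the signalling receptor, measured 17.4 and 16.7 RPKM on the anterior side and 30.9 and 22.7 RPKM on the posterior side, a log2 difference of -0.61 (standard error 0.27, unadjusted limma p of 0.0654, adjusted p = 0.964). Both posterior libraries were above both anterior libraries, and the difference was -0.40 without posterior library 1. Its partner chain IL1RAP measured 12.8 and 8.74 RPKM against 15.9 and 11.8 RPKM, with overlapping sides. IL1R2, a decoy that binds interleukin-1 without signalling, measured 3.11 and 1.24 RPKM on the anterior side and 11.8 and 1.71 RPKM on the posterior side. Its posterior mean came mostly from posterior library 1, and without that library the log2 difference of -0.96 became 0.16. In the same receptor family, IL18R1 measured 2.66 and 1.40 RPKM against 3.07 and 1.41 RPKM, and IL1RL1, the receptor for IL-33 in mammals, ran from 0.433 to 0.530 RPKM except for 1.70 RPKM in posterior library 1. The cytokine IL18 ran from 1.08 to 1.83 RPKM, with its highest value in posterior library 1.

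The chemokine ligands CCL4 and IL8 differed more between the libraries of a side than any other tested member, on both sides. CCL4, an inflammatory CC chemokine, measured 8.40 and 2.37 RPKM on the anterior side and 27.4 and 2.07 RPKM on the posterior side. Library 1 was above library 2 by 3.55-fold within the anterior and by 13.3-fold within the posterior side in RPKM, so the sides overlapped (log2 difference -0.73 with a standard error of 1.09, limma adjusted p = 0.964). IL8, named for a CXC chemokine that attracts granulocytes in mammals, showed the same order. It measured 2.60 and 0.492 RPKM on the anterior side and 10.9 and 0.524 RPKM on the posterior side. CCL20, the ligand of CCR6 in mammals, measured 1.18 and 0.393 RPKM against 2.36 and 0.358 RPKM. Without posterior library 1 the log2 difference was 0.87 for CCL4, 0.60 for IL8 and 0.36 for CCL20, each opposite in sign to the value with all 4 libraries. CCL1 measured 1.19 and 1.42 RPKM on the anterior side and 0.367 and 1.19 RPKM on the posterior side, with its lowest value in posterior library 1. The names IL8 and CCL4 each match 2 genes of the RefSeq table, so reads of the copies could be split or shared. CCL19 and CXCL13L2 were the untested ligands, at 0.211 to 0.771 RPKM and 0 to 0.104 RPKM.

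CXCL12, a homeostatic chemokine of stromal cells, varied far less than these inflammatory ligands. It measured 3.79 and 3.66 RPKM on the anterior side and 5.10 and 3.69 RPKM on the posterior side. Its receptors did vary. CXCR7, the atypical receptor that takes up CXCL12 and is also named ACKR3, measured 54.1 and 25.8 RPKM on the anterior side and 60.8 and 25.4 RPKM on the posterior side. Library 1 was above library 2 within each side, by 2.10-fold and 2.40-fold, though no label pairs same-numbered libraries across the sides. The side difference was -0.07 on the log2 scale with a standard error of 0.54. CXCR4, the signalling receptor for CXCL12, measured 7.84 and 4.53 RPKM against 15.3 and 4.74 RPKM. Both receptors were highest in posterior library 1 and next highest in anterior library 1.

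CCR2 followed a similar order. This receptor, found on monocytes in mammals, measured 5.06 and 3.19 RPKM on the anterior side and 9.88 and 4.02 RPKM on the posterior side. It was highest in posterior library 1, and the sides overlapped. Without posterior library 1 the log2 difference was 0.01, from -0.55. The 8 untested chemokine receptors (CCR4, CCR6, CCR7, CCR8, CCR8L, CCR9, CCR10 and CXCR5) did not exceed 0.807 RPKM in any library, the value of CCR7 in anterior library 1.

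**Figure D3:**
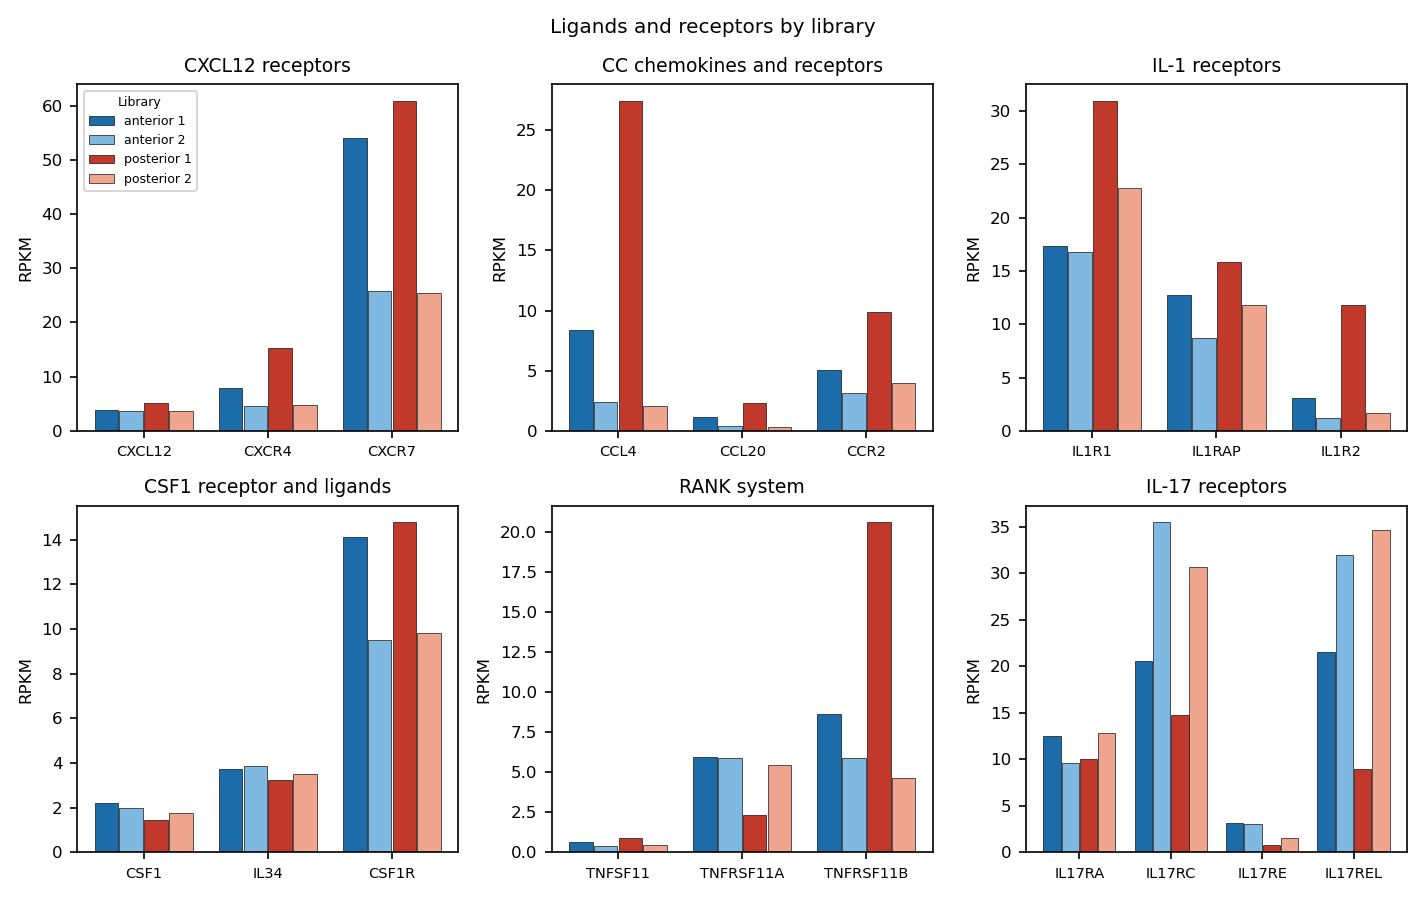
Level in RPKM of ligands and receptors that act together, with 1 bar per library (blue anterior, red posterior, darker for library 1). Most chemokine and interleukin-1 receptor bars are highest in posterior library 1 at up to 60.8 RPKM (CXCR7), whereas IL17RC, IL17REL and TNFRSF11A are lowest there.

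Within a side, many members differed between the libraries, mostly with library 1 higher. In the anterior side 3 members (CCL4, CXCR7 and IL8) were at least 2-fold higher in library 1, against 2.12% of all tested genes, and 0 were at least 2-fold higher in library 2, against 1.02%. In the posterior side 11 members were at least 2-fold higher in library 1, which is 24.4% of members against 4.74% of all genes. They were CCL4, CCL20, IL8, CXCR4, CXCR7, CCR2, IL1R2, IL20RA, IL22RA1, CSF3R and TNFRSF11B. Library 2 was at least 2-fold higher for 2 members, IL17RC and IL17REL, against 9.42% of all genes. Within each side these compare 1 library with 1 library, with no replicate and no test.

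Library 1 was above library 2 within both sides for 25 of the 45 members, or 55.6%, against 26.7% of all tested genes. The reverse order held for 9 members, against 37.2% of all genes. Median ratio scaling gave counts of 27 and 8, against 32.9% and 33.0% of all genes. Posterior library 1 was the highest of the 4 libraries for 24 members, or 53.3%, against 26.5% of all genes, and the lowest for 14 members, or 31.1%, against 54.5%. The median difference between posterior libraries 1 and 2 was 0.38 over members and -0.22 over all genes on the log2 scale, and that between anterior libraries 1 and 2 was 0.26 and 0.03.

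**Figure D4:**
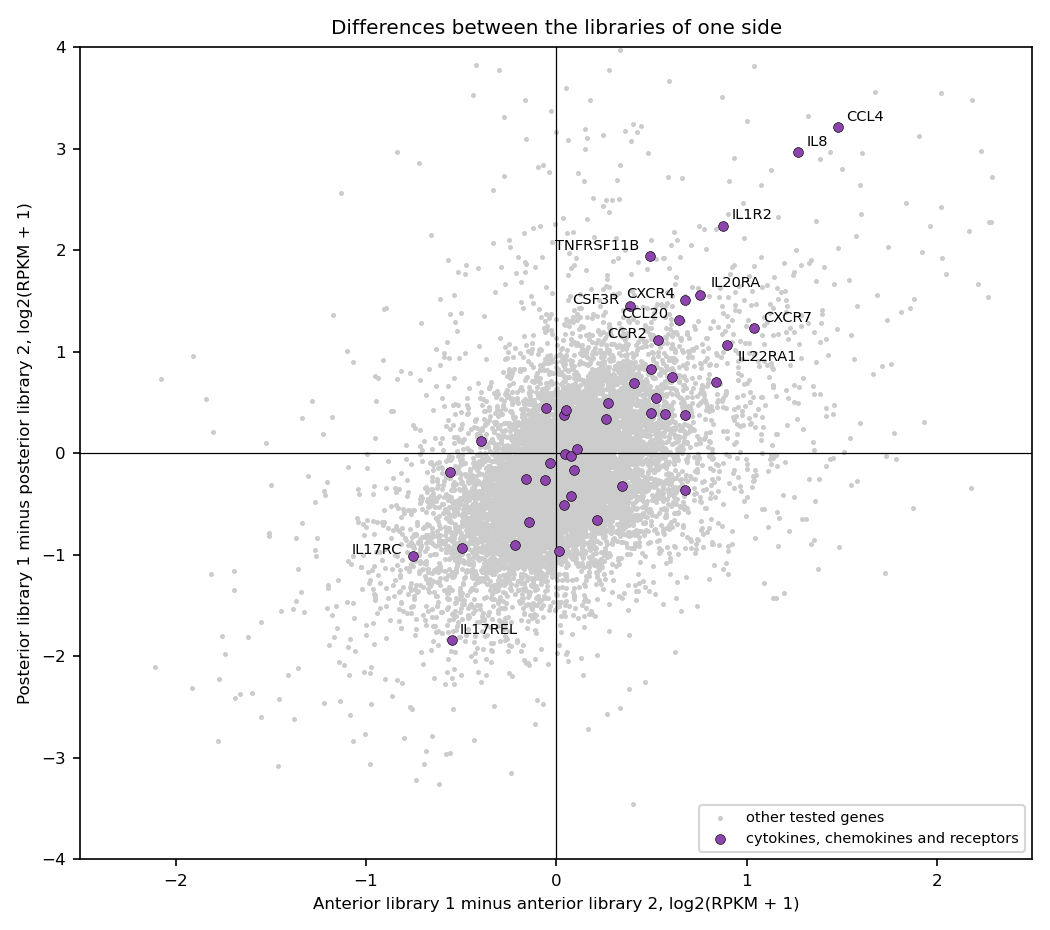
Difference between library 1 and library 2 within the anterior side (horizontal axis) and within the posterior side (vertical axis), on the log2(RPKM + 1) scale, for 44 members and the tested genes outside the name rule, where 45 of all 10939 tested genes lie outside the axes. Members at least 2-fold apart in either side are named, and CCL4 lies farthest out at 1.48 and 3.21.

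Markers of leukocytes moved with these genes in part. Of 18 listed leukocyte markers 14 were found, none at 0 in every library, and 11 were tested. Library 1 was above library 2 within both sides for 6 of them (PTPRC, LCP1, SPI1, LAPTM5, ITGB2 and CD3E) and below it for 4 (CTSS, CD3D, CD4 and MARCO). Over all tested genes these orders held for 26.7% and 37.2%. SPI1, a transcription factor of myeloid cells, measured 9.65 and 7.49 RPKM on the anterior side and 22.6 and 6.90 RPKM on the posterior side. PTPRC, carried by nearly all leukocytes, measured 5.88 and 4.59 RPKM against 8.53 and 5.21 RPKM. In the reverse order, MARCO measured 3.92 and 4.38 RPKM against 1.36 and 6.28 RPKM. CD4 measured 3.49 and 9.45 RPKM against 4.94 and 6.70 RPKM. The list summed to 382 and 441 RPKM on the anterior side and 456 and 411 RPKM on the posterior side, most of it from CD74 at 254 to 314 RPKM. Endothelial markers (8 of 8 found) summed to 117 and 114 RPKM against 146 and 120 RPKM. They did not move together in posterior library 1, where 4 had their highest value (PECAM1, CDH5, TEK and ERG) and 4 their lowest (KDR, FLT1, TIE1 and EGFL7). The higher sum there came mostly from the adhesion molecule PECAM1, at 70.1 RPKM against 33.5 to 40.5 RPKM in the other libraries. The part that these cells, the smooth muscle or the lower depth of posterior library 1 had in the differences was not tested.

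Receptors of the interleukin-10 and interleukin-20 family, which in mammals relay cytokines to epithelium, were among those with library 1 higher. IL22RA1, the specific chain of the interleukin-22 receptor, measured 7.02 and 3.30 RPKM on the anterior side and 10.6 and 4.51 RPKM on the posterior side. IL20RA measured 3.04 and 1.39 RPKM against 4.39 and 0.837 RPKM, and its partner IL20RB 2.18 and 0.773 RPKM against 1.23 and 0.374 RPKM. The sides overlapped for each of these chains. The shared chain IL10R2, named IL10RB in the RefSeq table, varied little, at 13.2 and 12.8 RPKM against 14.2 and 14.3 RPKM. Its posterior values lay just above its anterior values, with a log2 difference of -0.13 and a standard error of 0.23. The ligand IL22 did not exceed 0.218 RPKM and IL10 did not exceed 0.0514 RPKM.

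Receptors of interleukin-4 and interleukin-13 were expressed at steady or moderate levels. IL4RA, the shared signalling chain, ran from 9.63 to 10.3 RPKM. IL13RA1, which pairs with it, measured 5.75 and 4.83 RPKM on the anterior side and 2.64 and 4.74 RPKM on the posterior side, and its log2 difference of 0.46 was 0.13 without posterior library 1. The decoy receptor IL13RA2 measured 14.6 and 20.9 RPKM against 11.2 and 22.4 RPKM, so library 2 was the higher one within each side. IL11RA, the interleukin-11 receptor, measured 1.58 and 2.39 RPKM against 1.25 and 1.07 RPKM, and its anterior values lay above its posterior values. Its log2 difference was 0.46 with a standard error of 0.28 (unadjusted limma p of 0.163, adjusted p = 0.964).

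IL15, which supports T cells and natural killer cells, was the interleukin with the highest level. It measured 14.6 and 10.1 RPKM on the anterior side and 20.5 and 11.1 RPKM on the posterior side. IL2RG, the common gamma chain of its receptor, measured 10.6 and 7.73 RPKM against 13.3 and 7.84 RPKM, while the other signalling chain, IL2RB, stayed between 0.533 and 0.721 RPKM. Ligand and gamma chain were both highest in posterior library 1 and next highest in anterior library 1. IL2RA measured 1.81 and 0.758 RPKM against 2.27 and 1.52 RPKM and IL7R 1.04 and 0.374 RPKM against 1.12 and 0.632 RPKM. IL16, a chemoattractant for CD4 cells in mammals, measured 5.20 and 8.12 RPKM against 8.56 and 9.88 RPKM, with both posterior libraries higher (log2 difference -0.44, standard error 0.30, limma adjusted p = 0.964). The untested interleukins (IL6, IL7, IL9, IL10, IL12A, IL12B, IL17B, IL17C, IL17F and IL22) did not exceed 0.406 RPKM, the value of IL7 in posterior library 1. Untested receptors of the same class beside IL1RL1 and IL2RB were IL5RA, IL9R, IL10R1, IL12RB1, IL12RB2, IL18RAP, IL21R, IL22RA2 and IL23R, at or below 0.555 RPKM.

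The macrophage growth factor receptor CSF1R was well expressed together with low levels of both its ligands. CSF1R measured 14.1 and 9.51 RPKM on the anterior side and 14.8 and 9.81 RPKM on the posterior side, so library 1 was higher within each side. CSF1 measured 2.19 and 1.99 RPKM against 1.45 and 1.76 RPKM, and IL34, the other ligand, 3.75 and 3.86 RPKM against 3.24 and 3.52 RPKM. Anterior values of both ligands lay above the posterior ones, with log2 differences of 0.25 and 0.13 and standard errors of 0.26 and 0.25 (limma adjusted p = 0.964 and 0.967). For IL34 the direction turned after quantile normalization. CSF3R, the granulocyte factor receptor, measured 2.27 and 1.498 RPKM against 3.79 and 0.756 RPKM, and its ligand CSF3 did not exceed 0.0457 RPKM.

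Several TNF receptor genes were abundant, and their levels differed little between the sides. TNFRSF19, also known as TROY, which is expressed in hair follicles of mice, measured 31.8 and 33.1 RPKM on the anterior side and 27.4 and 33.1 RPKM on the posterior side. TNFRSF1A, the main TNF receptor, measured 28.8 and 23.8 RPKM against 32.9 and 25.9 RPKM, and TNFRSF1B, the second TNF receptor, 8.10 and 6.54 RPKM against 9.77 and 6.63 RPKM. The sides overlapped for all 3. TNFRSF21, also known as death receptor DR6, ran from 6.61 to 8.12 RPKM. TNFSF10, the ligand TRAIL, measured 38.2 and 23.5 RPKM on the anterior side and 22.7 and 29.6 RPKM on the posterior side, so its libraries were ordered differently in the sides.

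The receptor RANK and its decoy osteoprotegerin, which share the ligand TNFSF11, went opposite ways in posterior library 1. TNFRSF11A, which encodes RANK, measured 5.95 and 5.87 RPKM on the anterior side and 2.31 and 5.45 RPKM on the posterior side. TNFRSF11B, which encodes osteoprotegerin, measured 8.64 and 5.86 RPKM against 20.6 and 4.61 RPKM. The receptor was lowest and the decoy highest in that library, while the other 3 libraries lay within 5.45 to 5.95 and 4.61 to 8.64 RPKM. TNFSF11 itself ran from 0.386 to 0.914 RPKM and was not tested. The log2 difference of TNFRSF11A was 0.58 with a standard error of 0.38 (limma adjusted p = 0.964) and 0.10 without posterior library 1. For TNFRSF11B it was -0.44 with a standard error of 0.65, and 0.53 without that library.

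Costimulatory receptors of lymphocytes were low. TNFRSF9, also called 4-1BB, measured 4.45 and 4.16 RPKM on the anterior side and 2.83 and 4.14 RPKM on the posterior side, with its anterior values above its posterior ones (log2 difference 0.26, standard error 0.28, limma adjusted p = 0.964). TNFRSF8, or CD30, measured 1.35 and 1.74 RPKM against 0.909 and 2.59 RPKM. Library 2 was the higher one within each side for TNFRSF8. Values of TNFRSF4, TNFRSF13B, TNFRSF13C, TNFRSF18, TNFRSF25 and the ligand TNFSF8 were at or below 1.20 RPKM and none was tested, with TNFRSF25 closest to the filter at 0.974 RPKM in its second highest library. Just inside the filter stood IL7R, at 1.04 RPKM in its second highest library. The name rule also took IL4I1, an amino acid oxidase, and IL1RAPL1 and IL1RAPL2, adhesion proteins of synapses, which are neither cytokines nor their receptors. Their levels did not exceed 0.540, 0.0583 and 1.43 RPKM, each reached in posterior library 1.

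In the lists of cytokine-related genes outside the name rule and of signal transducers below the receptors, no gene passed the test either. Overlap between the sides was not counted for these lists. Of 31 other cytokine-related genes listed, 26 were found and 19 tested. Of those tested, 0 were called by limma and 0 had an unadjusted p under 0.05. In anterior tissue 8 were higher and 11 lower, with a median log2 difference of -0.13. ACKR3, also on that list, was counted as not found because its row is the member CXCR7. EDA, the TNF family ligand that drives feather and hair formation, measured 17.5 and 25.8 RPKM on the anterior side and 3.73 and 21.9 RPKM on the posterior side, and its receptor EDAR 8.89 and 10.3 RPKM against 20.0 and 9.55 RPKM. Ligand and receptor thus had their lowest and highest value in the same library, posterior library 1. ACKR4, an atypical receptor that takes up CC chemokines, measured 17.6 and 8.93 RPKM against 41.6 and 5.63 RPKM. Of 55 transducers listed, 49 were found and 47 tested, with 0 called by limma and 0 at an unadjusted p under 0.05. Their median log2 difference was 0.05, against 0.11 over all genes, with 27 higher and 20 lower in anterior tissue. Library 1 was above library 2 within both sides for 24 of the 47 transducers, against 26.7% of all tested genes. The same held for 10 of the 19 other cytokine-related genes. The reverse order held for 12 and 6, against 37.2%. The order with library 1 higher was thus not particular to the members. SOCS3, a feedback inhibitor of JAK and STAT signalling, measured 5.62 and 6.09 RPKM against 10.8 and 6.15 RPKM, and SOCS2 25.5 and 25.1 RPKM against 9.06 and 33.2 RPKM. The kinase JAK1 ran from 40.6 to 58.3 RPKM and the transcription factor STAT3 from 40.9 to 60.8 RPKM.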

How the data were processed

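The authors deposited RPKM per gene for 4 libraries; the table's name gives Ensembl release 78, and TopHat2, Partek and the build galGal4 are listed without versions, per the submitters' processing notes. No source used here gives the counting method. Relative depth was read from ratios of values under 0.3 RPKM, since RPKM keeps no read totals. The 10939 genes reaching 1 RPKM in 2 or more libraries were compared as log2(RPKM + 1) with limma 3.58.1 in R 4.3.3 (eBayes with trend, 2 residual degrees of freedom, two-sided, Benjamini-Hochberg over all tested genes, threshold 0.05). The fit was tested on simulated data with less noise than these libraries and with changes larger than that of any member. That test does not give its power for these data. Of the 87 member names, 82 were current symbols in the RefSeq gene table (assembly GRCg7b, used for names only). Members and lists were chosen with earlier results of these data known. Values in every library were given for the 10 highest members, the 10 of smallest p, those at least 2-fold apart between or within sides, and their partners. Others named with values were chosen after these were seen. Plots used Python 3.11.15 and matplotlib 3.10.9. Alternatives were other pseudocounts, filters, scalings and eBayes options, a replicate block, and leaving out each library; a side then left with 1 library is assumed to vary like the other. Some genes are not reported here.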

Additional observations from a re-analysis of the deposited data

How the results depend on the processing

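No member passed the adjusted threshold under any alternative run (0 in each). Leaving out each library gave counts of members at least 2-fold apart without overlap of 0 to 3 in the anterior and 0 to 7 in the posterior direction, and a median log2 difference of -0.342 to 0.0682. Without posterior library 2 the posterior side rests on posterior library 1 alone, so p-values of members from that fit are not given. Pseudocounts of 0.1 and 0.5 each gave 1 member at least 2-fold higher in anterior tissue, IL17RE, and 10 and 5 members at least 2-fold apart within the anterior side, from 3. A filter of 5 RPKM left 24 members and 8, from 13, at least 2-fold apart within the posterior side. Without posterior library 1 the log2 difference of 25 of 45 members turned its sign, and without anterior library 2 that of 16. It did so for 4 after median ratio scaling (IL13RA2, IL17RD, TNFRSF19 and TNFRSF21) and for 3 after quantile normalization. Across all 4 omissions 15 members had one direction. No share over all tested genes is given for these counts of fold and direction, so they do not set the members apart. The causes were not tested.

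With the library number as a replicate block, 0 members passed (lowest limma adjusted p = 0.832) and 4 had an unadjusted p under 0.05, against 1 without it. Of all genes, 2 then passed, against 0. The share of all genes at an unadjusted p under 0.05 is not given with the block, so the 4 members have no background. Same-numbered libraries deviated together (r = 0.49 across genes, which are not independent), but no label pairs them and there are only 2 pairs.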

Other observations

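Some cytokine genes carry names outside the rule and were picked after their values were seen. K60, a synonym of the IL8-like gene IL8L1 in the RefSeq table, measured 5.78 and 1.12 RPKM on the anterior side and 24.1 and 1.13 RPKM on the posterior side, the same order as IL8. The row IL-1BETA, interleukin-1 beta, measured 0.86 and 0.223 RPKM against 2.85 and 0.416 RPKM. JSC, a synonym of the chemokine gene CXCL14, measured 15.3 and 7.28 RPKM against 24.7 and 18.9 RPKM, with both posterior libraries higher (log2 difference -0.96, standard error 0.39, unadjusted limma p of 0.0527, adjusted p = 0.964). CCLI10 ran from 19.5 to 33.2 RPKM. CCLI5 was listed at 0 in 3 libraries and at 4.90 RPKM in posterior library 1.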
